A study of Sorghum bicolor with 18 samples.

Results

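The oxophytodienoate reductase (OPR) genes of sorghum were followed in axillary buds after the leaf that covers the bud had been taken away. They are the genes of the deposited table whose symbol field holds OPR1, OPR2 or OPR3, the name of the matched Arabidopsis gene. The rule itself uses annotation and no measured value, but it was set with earlier results of these data known. It gave 14 of 34211 genes: 6 carry OPR1, 7 carry OPR2 and 1 carries OPR3. Of the 14, 9 passed the filter on low counts and are among the 21852 genes tested, and the other 5 are given by their reads. All 14 names are matches to Arabidopsis, and what each sorghum protein does was not measured here.

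OPR enzymes reduce a double bond in the ring of oxylipins, the oxygenated fatty acids from which plants make jasmonate, a hormone of wounding, defence and growth control. In Arabidopsis, OPR3 is the peroxisomal enzyme that reduces 12-oxo-phytodienoic acid, made in plastids by lipoxygenase, allene oxide synthase and allene oxide cyclase, to a product that a CoA ligase and beta-oxidation then shorten to jasmonic acid. OPR1 and OPR2 of Arabidopsis are cytosolic relatives that act poorly on the natural isomer of this substrate and can reduce a shortened derivative of it, on a side route to jasmonate.

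The plants were seedlings of cultivar 100M, a sorghum (Sorghum bicolor), 7 days after sowing. In leaf-removed plants the coleoptile and the first leaf had been peeled whole off the culm, which bares the bud in the axil of that leaf. In intact plants both stayed on. The labels name no transgene and no applied agent for any group. First axillary buds were taken at 1, 3 and 6 h from leaf-removed plants and from intact plants alike, which gave 6 groups of 3 libraries. Each library is a pool of 15 buds, and of 4 pools harvested per group the 3 with the best RNA were used, so errors and p-values describe how pools, not single plants, varied. The comparison of leaf-removed with intact buds at each time asked which bud transcripts respond to the loss of the leaf.

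Depth ranged from 21.4 to 45.8 M exon reads per library, with a median of 28.7 M. Of 23 genes that mark bud and shoot meristem, 22 had reads, among them a STM-annotated homeobox gene (Sobic.001G097100) at a mean of 35.3 RPKM (the authors' unit, reads per length of exon and size of library). The exception was the CUC2-annotated Sobic.005G060000, with no read, while the other CUC2-annotated gene, Sobic.008G071400, had reads in all 18 libraries. Of the 23, 19 passed the filter on low counts, and the PNH-annotated Sobic.002G298201 had reads in only 1 library. In 5 libraries many genes deviated alike from their groups: replicates c at 1 h and d at 6 h of the intact buds, and replicates d at 1 h, b at 3 h and d at 6 h of the leaf-removed buds. Intron reads made up 4.65% to 7.23% of their gene reads, and 3.12% to 4.82% in the remaining 13 libraries. For single OPR genes, calls that change without these 5 are given both ways, some only as counts. As these libraries are set apart because they deviate from their groups, leaving them out can narrow the spread. Smaller p-values without them may follow in part from that choice. Fold changes are relative to TMM factors, which set the median of all tested genes at -0.01, 0.00 and -0.03 (log2) at the 3 times. With library totals instead, that median was -0.25, -0.12 and -0.21, and 36.5%, 40.6% and 33.1% of all calls were higher, against 50.8%, 52.4% and 53.1%.

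Leaf removal raised the OPR3 gene and, from close to silence, 4 OPR1 and OPR2 genes within 1 h. At that time 5 of the 9 tested members were higher in leaf-removed buds (edgeR quasi-likelihood test with an adjusted p under 0.05, by Benjamini-Hochberg over every tested gene), where 24.8% of all tested genes were higher. The 4 near-silent genes passed the filter on low counts only through leaf-removed libraries, where they are high. The counts of members higher thus depend in part on that filter. At 3 h 5 members were higher, against 17.8% of all tested genes, and at 6 h 4 were, against 18% of them. No member was lower at any of the 3 times, where 24.1%, 16.2% and 15.9% of all tested genes were lower. The count lower was also 0 at an unadjusted p under 0.05, and 0 with DESeq2 and with limma voom. With library totals and without the 5 libraries that deviate alike, 1 member, Sobic.004G180500, was lower at 3 h (adjusted p = 0.042 in each). With single libraries left out, 0 to 1 was lower at 1 h and at 3 h. Without the 5 libraries 10 members were tested, and 6, 6 and 5 were higher at the 3 times. In that fit 6073, 5293 and 4757 of all tested genes were higher, against 5423, 3889 and 3943 in the main fit. The median log2 fold change of the 9 was 2.78, 1.25 and 0.82, beside the medians of all tested genes given above, and at 6 h it was 0.70 with the genes silent in intact buds set at their bound. The plot of fold changes shows that these medians join unlike genes. 3 members were called at all 3 times: OPR3 and the OPR2-annotated Sobic.010G084700 and Sobic.010G084300.

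**Figure D1:**
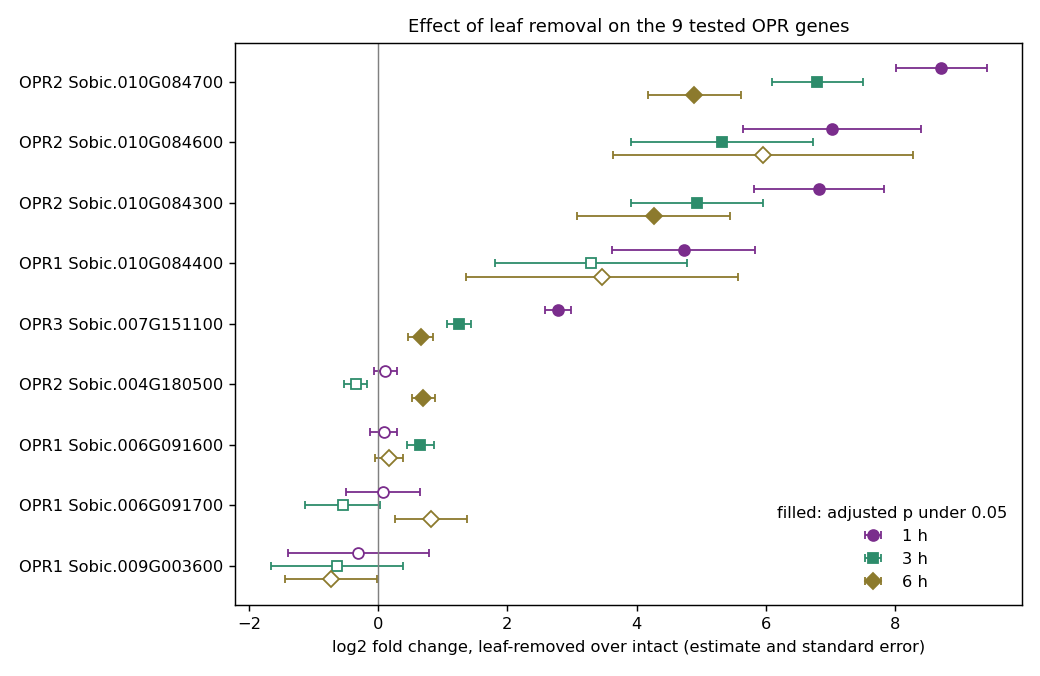
Log2 fold change, leaf-removed against intact (horizontal axis, log2 scale), for the 9 tested OPR genes, with bars for the standard error of the fit over 3 against 3 libraries. Circles, squares and diamonds are 1, 3 and 6 h, and filled marks have an adjusted p under 0.05. The upper 5 genes have their largest value at 1 h, from 2.78 to 8.72, and the lower 4 have values from -0.31 to 0.11 at that time. Sobic.010G084400 and Sobic.010G084600 have no read in intact buds at 6 h, so their marks for that time depend on the prior count of the fit and are no bound.

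OPR3, Sobic.007G151100, is the member named for the enzyme of the main jasmonate route, and it was expressed in every library. In intact buds its level was 7.79, 7.11 and 8.65 RPKM at 1 h, 7.79, 8.70 and 9.14 at 3 h, then 8.45, 7.91 and 8.06 at 6 h. In leaf-removed buds it was 54.9, 51.3 and 32.9 RPKM at 1 h, 15.8, 18.1 and 22.4 at 3 h, then 12.4, 11.5 and 9.84 at 6 h. Every leaf-removed library stood above every intact library, at all 3 times. The mean in intact and leaf-removed buds was 7.85 ± 0.774 (SD, n = 3) and 46.4 ± 11.8 RPKM at 1 h, 8.54 ± 0.688 and 18.8 ± 3.36 at 3 h, then 8.14 ± 0.281 and 11.3 ± 1.3 at 6 h. OPR3 thus rose 6.89-fold at 1 h (log2 fold change 2.78 ± 0.20 SE, adjusted p = 2.0e-08), 2.37-fold at 3 h (1.25 ± 0.19, adjusted p = 1.1e-04) and 1.58-fold at 6 h (0.66 ± 0.19, adjusted p = 0.013). The authors' deposited table gives 6.70-fold (FDR p = 4.37e-18), 2.34-fold (FDR p = 0.0172) and 1.57-fold (FDR p = 0.866), so its last value misses the threshold.

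The size of the OPR3 response shrank with time. The log2 effect was 1.54 ± 0.26 smaller at 3 h than at 1 h (a difference of -1.54, adjusted p = 4.4e-04), and OPR3 was the 1 member of 9 that passed as lower over this step, as 13.2% of all tested genes did. The estimates for Sobic.010G084700, Sobic.010G084300 and Sobic.010G084600 were further below 0 (-1.92, -1.89 and -1.71), with wider errors, and did not pass. From 1 to 6 h the difference was -2.13 ± 0.27 (adjusted p = 1.5e-05). The step from 3 to 6 h, -0.59 ± 0.26, did not pass (adjusted p = 0.28), though it did without the 5 libraries that deviate alike (-0.61, adjusted p = 0.029). Within leaf-removed buds OPR3 at 3 h was 36.6% of its 1 h level (adjusted p = 2.0e-05), and at 6 h it was 62.8% of its 3 h level (adjusted p = 0.023). Intron reads were 5.57%, 6.08% and 5.57% of its reads in intact buds, and 2.07%, 2.80% and 4.56% in leaf-removed buds, summed over the 3 libraries of each group.

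**Figure D2:**
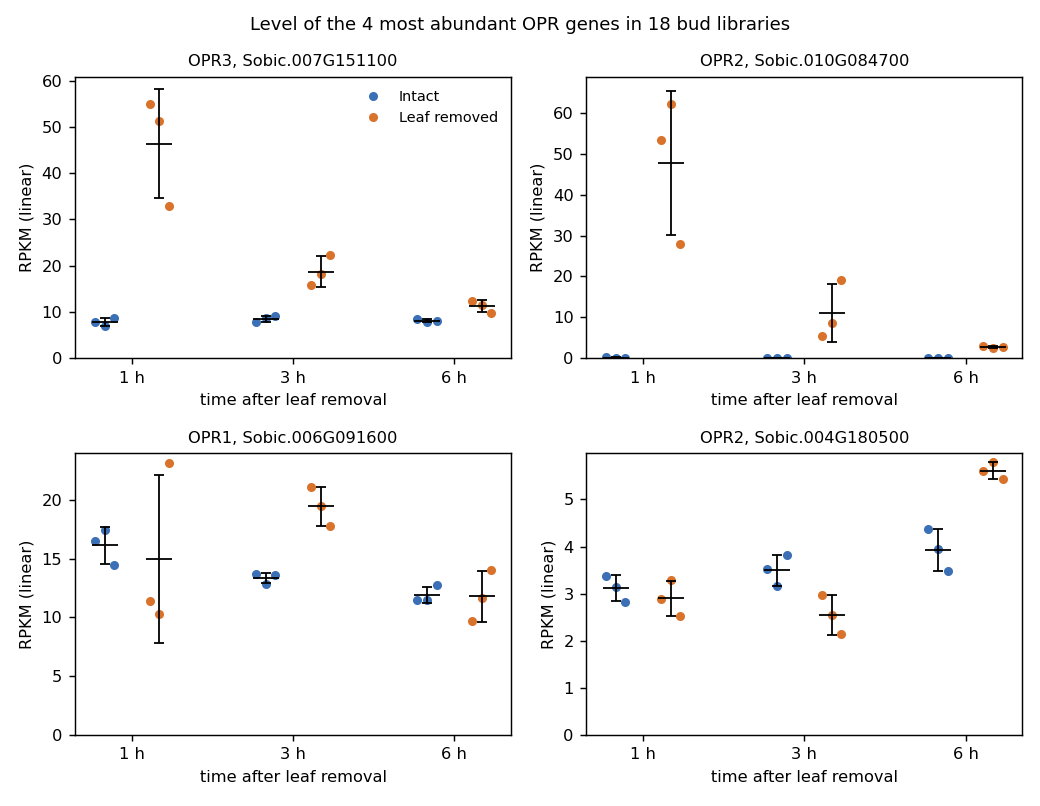
Level in RPKM (vertical axis, linear, from 0) of the 4 OPR genes with the highest levels against time in h (horizontal axis); each point is a library, blue for intact and orange for leaf-removed buds, with the group mean and SD (n = 3). OPR3 and Sobic.010G084700 are highest in leaf-removed buds at 1 h (46.4 and 47.8 RPKM) and decline, while Sobic.006G091600 and Sobic.004G180500 stay within 9.68 to 23.2 and 2.13 to 5.79 RPKM.

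OPR3 lay below its own group mean in all 5 libraries that deviate alike, by 0.03 to 0.52 on the log2 scale. Without them its effect was 2.94 at 1 h, 1.36 at 3 h and 0.75 at 6 h (adjusted p = 6.9e-10, 4.0e-07 and 4.4e-04), and with each single library left out it was 2.56 to 2.92 at 1 h. Some markers of tissue types differed at 1 h too. The summed level of 15 stem, xylem and phloem markers was 14.6 to 16.8 RPKM in intact and 12.7 to 31.8 RPKM in leaf-removed buds, and 3 of 11 tested were higher, near the share among all genes, or 1 higher and 1 lower with library totals. Without the 5 libraries 5 of the 11 were higher and 0 lower. All 15 had reads. The 23 bud and meristem markers summed to 194 to 229 RPKM and 151 to 152 RPKM, with 7 of 19 tested lower and 2 higher, and 11 leaf and photosynthesis markers to 653 to 1484 and 991 to 1383 RPKM, with 1 higher and 1 lower. At 3 and 6 h, 2 and 1 of the 11 stem, xylem and phloem markers were higher, and 0 and 3 of the 19 bud markers lower. Without the 5 libraries 10 of the 19 bud markers were lower and 3 higher at 1 h. At 3 and 6 h in that fit 1 and 6 of them were lower and 1 was higher at each time. The part of these tissues in the response of the OPR genes was not tested. In these bulk samples, more cells of a type that transcribes a gene and more RNA per cell cannot be told apart.

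The largest relative rise came from a run of 5 members with consecutive numbers, with no other gene of the table numbered between them: Sobic.010G084100, Sobic.010G084300, Sobic.010G084400, Sobic.010G084600 and Sobic.010G084700. The 1 named OPR1 is Sobic.010G084400, and the other 4 are named OPR2. The neighbours numbered on either side, Sobic.010G084000 and Sobic.010G084800, are not members. All 5 were close to silent in intact buds.

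Sobic.010G084700 carried most of the reads of this run. It had 15, 0 and 5 reads in intact buds at 1 h, 2, 8 and 4 at 3 h, then 3, 5 and 5 at 6 h. In leaf-removed buds its level was 53.2, 62.0 and 28.0 RPKM at 1 h (2442, 2400 and 1305 reads), 5.47, 8.61 and 19.1 at 3 h and 3.02, 2.59 and 2.82 at 6 h. The groups did not overlap at any time, and in the leaf-removed group at 3 h 1 library, replicate d, stood well above the other 2. Mean levels were 0.136 ± 0.158 and 47.8 ± 17.6 RPKM at 1 h, 0.108 ± 0.0803 and 11.1 ± 7.15 at 3 h, then 0.104 ± 0.0190 and 2.81 ± 0.217 at 6 h (SD, n = 3). The fitted rise was 420-fold at 1 h (log2 8.72 ± 0.70, adjusted p = 7.9e-08), 111-fold at 3 h (6.79 ± 0.70, adjusted p = 2.6e-06) and 29.7-fold at 6 h (4.89 ± 0.72, adjusted p = 8.9e-05).

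The few intact reads of Sobic.010G084700 set the size of these folds. The 1 h value was 10.1 (log2) without intact replicate b, which holds 15 of the 20 reads, and 8.08 without replicate c, which holds none. At 3 h it was 7.50 without intact replicate b and 6.12 without leaf-removed replicate d. The authors' deposited table gives 208-fold (FDR p = 6.76e-23), 50.1-fold (FDR p = 8.76e-07) and 14-fold (FDR p = 0.0895). Among 21852 tested genes it ranked 61 by fold at 1 h, where OPR3 ranked 1354. Over all libraries, 89.6% of its reads were placed at a single position, and by those reads the leaf-removed 1 h level was 42.7 ± 14.6 RPKM. Its reads and those of Sobic.010G084600 could be shared with a near-identical copy, so both levels are uncertain to that degree.

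The effect on Sobic.010G084700 also shrank, by 3.82 ± 1.24 log2 units from 1 to 6 h (a difference of -3.82, adjusted p = 0.023). It and OPR3 were the 2 of 9 members that passed as lower at 6 h than at 1 h, against 19.5% of all tested genes. The difference for Sobic.010G084300, -2.56 ± 2.21, did not pass. Nor did those for Sobic.010G084400 and Sobic.010G084600, whose sign depends on the prior count of the fit, since they have no intact read at 6 h. Leaving out intact 6 h replicate c (adjusted p = 0.086) or replicate d (adjusted p = 0.064) ended the call of Sobic.010G084700. It was also lost with limma voom (-4.88, adjusted p = 0.084). The steps from 1 to 3 h (adjusted p = 0.24) and from 3 to 6 h (-1.90 ± 1.22, adjusted p = 0.47) did not pass. Within leaf-removed buds its level at 3 h was 21.0% of that at 1 h (adjusted p = 0.0015), and at 6 h 26.4% of that at 3 h (adjusted p = 0.014).

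Sobic.010G084300 had 0, 5 and 0 reads in intact buds at 1 h and 187, 172 and 64 in leaf-removed buds. At 3 h it had 2, 0 and 2 against 21, 30 and 72 reads, and at 6 h 2, 0 and 0 against 26, 16 and 7. The groups were apart at all 3 times, and its leaf-removed level was 3.40 ± 1.73, 0.946 ± 0.663 and 0.334 ± 0.202 RPKM (SD, n = 3). It rose by 6.82 ± 1.01 (log2) at 1 h (adjusted p = 4.0e-05), 4.93 ± 1.03 at 3 h (adjusted p = 0.0015) and 4.26 ± 1.19 at 6 h (adjusted p = 0.011). From the summed reads, scaled by library size and TMM factor, the 6 h ratio was 22.4. Its exact 95% interval was 5.89 to 191, which, like all such intervals here, covers counting error only. The 6 h call was lost with limma voom (adjusted p = 0.058).

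Sobic.010G084600 had 0, 4 and 0 reads in intact and 175, 163 and 62 in leaf-removed buds at 1 h. At 3 h these were 3, 0 and 0 against 1, 35 and 88 reads, and at 6 h 0, 0 and 0 against 3, 16 and 6. The groups were apart at 1 and 6 h and overlapped at 3 h, where leaf-removed replicate b held 1 read of this gene beside 275 of Sobic.010G084700. It rose by 7.03 ± 1.38 (log2) at 1 h (adjusted p = 7.3e-04) and 5.32 ± 1.42 at 3 h (adjusted p = 0.010), where the ratio of the reads was 43.4 with an exact 95% interval of 14.5 to 213. The 3 h call was lost with limma voom (adjusted p = 0.14). At 6 h it was at least 7.63-fold higher, taking 3 reads over the group as the limit of an intact count of 0, and the test did not pass (adjusted p = 0.062). It did pass with DESeq2 (adjusted p = 0.023), with the intron share as a covariate (adjusted p = 0.034), without the 5 libraries that deviate alike (adjusted p = 0.024), and when replicate b or d of the leaf-removed buds at 3 h was left out (adjusted p = 0.017 and 0.048).

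Sobic.010G084400 had 0, 4 and 0 reads in intact and 24, 38 and 18 in leaf-removed buds at 1 h. It rose by 4.73 ± 1.1 (log2, adjusted p = 0.0027). At 3 h it had 1, 0 and 0 against 9, 0 and 4 reads (adjusted p = 0.10), and at 6 h no read against 2, 2 and 0 (adjusted p = 0.22). Sobic.010G084100, with 66 reads, did not pass the filter. It had no read in intact buds at 1 h and 25, 25 and 9 reads in leaf-removed buds, at least 27.0-fold more after scaling by library size and TMM factor. At 3 h leaf-removed buds had 0, 2 and 3 reads of it, and at 6 h 1 read was seen in each treatment.

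At 1 h all intact reads of Sobic.010G084300, Sobic.010G084400 and Sobic.010G084600 came from replicate c, the library with no read of Sobic.010G084700. Without it their 1 h values were 10.4, 8.00 and 10.3 (log2), with adjusted p of 5.2e-05, 0.0019 and 0.0018. Without all 5 libraries that deviate alike, of which it is 1, they were 10.8, 8.31 and 10.7. These are no bounds, since the intact count is then 0. In the 9 leaf-removed libraries Sobic.010G084700 made up 82.0% to 89.9% of the summed RPKM of the 5 genes, while the sum ran from 3.06 to 72.0 RPKM. The plot of the 5 genes shows the same order of times in each.

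**Figure D3:**
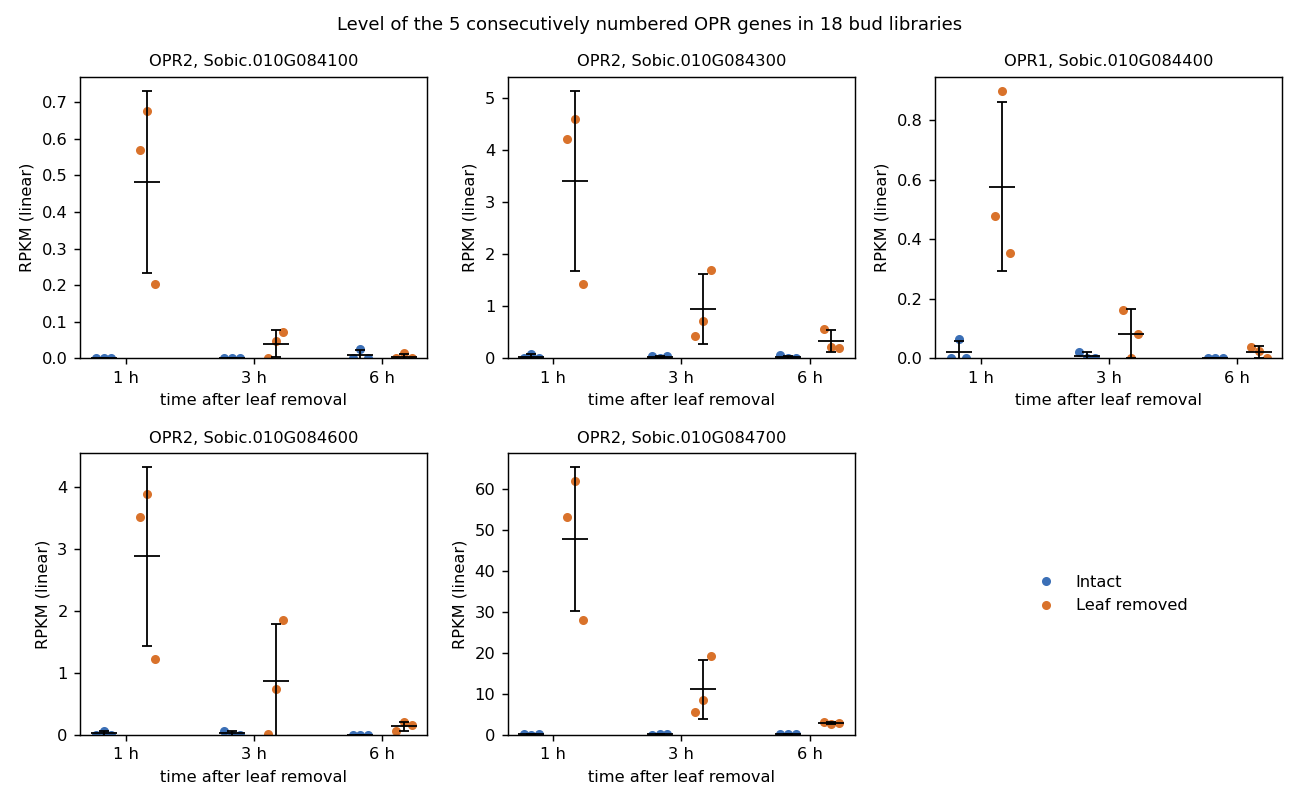
Level in RPKM (vertical axis, linear, from 0, with its own scale in each panel) of the 5 OPR1- and OPR2-annotated genes with consecutive numbers, against time after leaf removal (horizontal axis). Points are libraries, blue for intact and orange for leaf-removed buds, with the group mean and SD (n = 3). Each gene has its highest leaf-removed mean at 1 h, from 0.483 RPKM for Sobic.010G084100 to 47.8 RPKM for Sobic.010G084700.

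The remaining members did not share this shape. Sobic.006G091600, named OPR1, was the most abundant member in intact buds. Its level there was 16.5, 17.5 and 14.4 RPKM at 1 h, 13.7, 12.9 and 13.6 at 3 h, then 11.5, 11.5 and 12.7 at 6 h. In leaf-removed buds it was 11.4, 10.3 and 23.2 RPKM at 1 h, 21.1, 19.5 and 17.8 at 3 h, then 9.68, 11.7 and 14 at 6 h. The groups overlapped at 1 and 6 h and were apart at 3 h, with leaf-removed buds higher.

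Sobic.006G091600 rose 1.57-fold at 3 h (log2 0.65 ± 0.21, adjusted p = 0.026). Its effects at 1 h (0.09 ± 0.21, adjusted p = 0.76) and 6 h (0.17 ± 0.21, adjusted p = 0.57) did not pass. The 1 h value rests on leaf-removed replicate d, at 23.2 RPKM, 1 of the 5 libraries that deviate alike, in all of which this gene lay above its group mean, by 0.08 to 0.67 (log2). Without that library the value was -0.42 (adjusted p = 0.025), a call in the other direction, and without all 5 it was -0.27 (adjusted p = 0.10). The 3 h rise was 0.59 (adjusted p = 8.4e-04) without the 5. It was lost without intact 3 h replicate a, b or c (adjusted p = 0.058, 0.072 and 0.059) or leaf-removed 3 h replicate b or c (adjusted p = 0.064 and 0.057) and with library totals (0.53, adjusted p = 0.096).

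Sobic.004G180500, named OPR2, moved latest. Its intact level was 3.38, 3.13 and 2.83 RPKM at 1 h, 3.52, 3.16 and 3.82 at 3 h, then 4.37, 3.95 and 3.47 at 6 h. Leaf-removed buds had 2.88, 3.28 and 2.53, then 2.98, 2.54 and 2.13, then 5.59, 5.79 and 5.43 RPKM. By RPKM the groups overlapped at 1 h, every leaf-removed library stood below every intact one at 3 h, and every one stood above at 6 h.

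Sobic.004G180500 rose 1.62-fold at 6 h (log2 0.70 ± 0.17, adjusted p = 0.0053), after 0.11 ± 0.17 at 1 h (adjusted p = 0.63) and -0.35 ± 0.17 at 3 h (adjusted p = 0.14). Its 3 h value passed as lower without the 5 libraries that deviate alike (-0.47, adjusted p = 0.042) and with library totals (-0.47, adjusted p = 0.042). It was the 1 member that passed as higher in effect at 6 h than at 3 h, by 1.05 ± 0.25 (adjusted p = 0.026), against 2.35% of all tested genes. Sobic.006G091700 had a larger estimate (1.37) that did not pass. That call was lost when intact 3 h replicate a or c, intact 6 h replicate d, leaf-removed 3 h replicate c or d, or leaf-removed 6 h replicate b was left out (adjusted p = 0.055, 0.074, 0.062, 0.063, 0.077 and 0.076), and with no filter (adjusted p = 0.054). Intron reads were 7.54%, 13.4% and 9.70% of its reads in intact and 4.06%, 3.93% and 3.68% in leaf-removed buds.

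Of the low members, Sobic.006G091700, named OPR1 and numbered next to Sobic.006G091600, stayed at group means of 0.247 to 0.588 RPKM. Its effects of 0.07 ± 0.57, -0.55 ± 0.58 and 0.82 ± 0.56 (log2) did not pass (adjusted p = 0.93, 0.51 and 0.28). At 3 h its leaf-removed libraries spread from 3 to 26 reads, and without replicate d of that group the value was -1.75 (adjusted p = 0.030). The next numbers, Sobic.006G091800 and Sobic.006G091900, are named OPR2 and had no read in any library.

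Sobic.009G003600, named OPR1, differed between times. In intact buds it had 2, 3 and 2 reads at 1 h, 0, 1 and 8 at 3 h, then 34, 29 and 11 at 6 h. In leaf-removed buds it had 1, 2 and 1, then 0, 3 and 2, then 16, 23 and 12 reads. Both treatments were highest at 6 h, and they overlapped at every time. Its effects of -0.31 ± 1.09, -0.64 ± 1.02 and -0.73 ± 0.71 (log2) did not pass (adjusted p = 0.84, 0.67 and 0.45).

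Both remaining genes, Sobic.008G079600 and Sobic.008G164450, are named OPR1 and were not tested. Sobic.008G079600 had 43 reads in all. Leaf-removed and intact buds had 18 and 1 at 1 h (ratio 24.7, exact 95% interval 3.90 to 1029), 13 and 1 at 3 h (13.7, 2.05 to 580) and 7 and 3 at 6 h (2.14, 0.488 to 12.8). Sobic.008G164450 had 3 reads, all in intact buds at 3 h.

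Of the 9 tested members 1 differed between the 3 times in intact buds, against 9.72% of all tested genes, a share near that background. It was Sobic.009G003600 (F test over 3 times, adjusted p = 0.0084), which was 3.68 ± 0.85 log2 units higher at 6 h than at 1 h (adjusted p = 0.011). Leaving out intact 6 h replicate a ended the call over the 3 times (adjusted p = 0.051). OPR3 at 6 h was 100% of its intact 1 h level (log2 0.01 ± 0.19), and the corresponding test did not pass (adjusted p = 0.99). In leaf-removed buds 8 of 9 members differed between the times, against 51.0% of all tested genes, a count that also depends in part on the filter. The exception was Sobic.006G091700 (adjusted p = 0.15), and Sobic.006G091600 was close to the threshold (adjusted p = 0.044, and 0.053 to 0.17 in 14 of 18 fits that leave out 1 library). The call of Sobic.010G084600 was lost with DESeq2 (adjusted p = 0.070).

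From 1 to 6 h in leaf-removed buds, 5 of 9 members fell, against 25.9% of all tested genes, and 2 rose, against 23.5%. Sobic.010G084400, among those that fell, passed the filter on low counts only through its 1 h leaf-removed libraries, so the count that fell depends in part on the filter. OPR3 fell to 23.0% of its 1 h level (adjusted p = 2.4e-07). The 4 tested genes of the numbered run fell further, Sobic.010G084300 to 9.28%, Sobic.010G084400 to 4.17%, Sobic.010G084600 to 4.76% and Sobic.010G084700 to 5.54% (adjusted p = 0.0019, 0.0035, 0.0050 and 7.6e-06). Whether their fall differs from that of OPR3 was not tested. Sobic.004G180500 rose to 184% (adjusted p = 5.7e-04) and Sobic.009G003600 to 958% (adjusted p = 0.0084).

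These changes reordered the family. In intact buds Sobic.006G091600 ranked above OPR3 and OPR3 above Sobic.004G180500 at each time, with ranges that did not overlap, and each of the other 11 members had a group mean of at most 0.608 RPKM. In leaf-removed buds at 1 h Sobic.010G084700 and OPR3 led with overlapping ranges, and with unique reads alone they changed places. Sobic.006G091600 came next, apart from both. At 3 h Sobic.006G091600, OPR3 and Sobic.010G084700 overlapped in turn, and at 6 h Sobic.006G091600 and OPR3 overlapped above Sobic.004G180500.

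The summed level of all 14 genes in intact buds was 27.7 ± 1.18, 26.1 ± 0.973 and 25.1 ± 0.725 RPKM at 1, 3 and 6 h (SD, n = 3). In leaf-removed buds it was 120 ± 25.6, 54.2 ± 10.3 and 32.9 ± 0.793 RPKM, and the libraries of the treatments did not overlap at any time. At 1 h Sobic.006G091600 gave 58.2% ± 3.36 of the sum in intact and 14% ± 10.2 in leaf-removed buds. OPR3 gave 28.4% ± 4.0 and 38.5% ± 2.81, and Sobic.010G084700 gave 0.487% ± 0.553 and 38.9% ± 7.21. At 6 h Sobic.010G084700 gave 0.416% ± 0.0866 in intact and 8.55% ± 0.792 in leaf-removed buds, and OPR3 gave 34.3% ± 4.75 in leaf-removed buds.

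**Figure D4:**
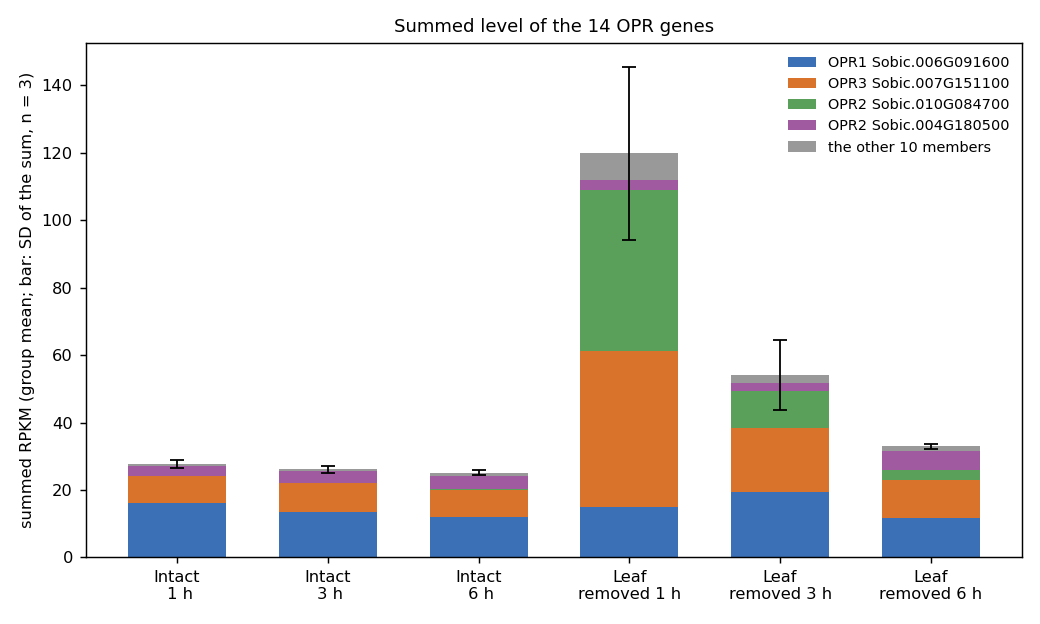
Summed level of the 14 OPR genes in RPKM (vertical axis, linear, from 0) in each of the 6 groups; bar segments are group means of single genes, and the error bar is the SD of the sum over 3 libraries. Intact buds hold 25.1 to 27.7 RPKM at all times, and leaf-removed buds 120 RPKM at 1 h, of which OPR3 and Sobic.010G084700 make up most, and 32.9 RPKM at 6 h.

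Genes of the steps before and after OPR3 were taken by the same match to Arabidopsis symbols. Their counts stand beside 24.8%, 17.8% and 18% of all tested genes higher and 24.1%, 16.2% and 15.9% lower at 1, 3 and 6 h. Some passed the filter on low counts only through leaf-removed libraries, so the counts higher depend in part on that filter. Among them are DGL-annotated Sobic.003G391000 (lipid release), CYP94C1-annotated Sobic.005G037000 (turnover) and JAZ1-annotated Sobic.001G259900 (signalling). In the lipid release, turnover and signalling lists 2 of 4, 8 of 11 and 22 of 29 genes were tested. Of 2 tested lipid release genes, which free the fatty acid substrate from membrane lipids, both were higher at all 3 times, though 1 at 1 h with library totals or without the 5 libraries that deviate alike. The 13-lipoxygenases, which open the jasmonate route in plastids, were higher in 4, 3 and 1 of 4 genes, with 0, 0 and 1 lower. Without the 5 libraries 2 of them were higher and 1 lower at 6 h. Of 3 allene oxide synthase genes 2, 2 and 1 were higher (2, 3 and 3 without the 5 libraries), and the 1 allene oxide cyclase gene was higher at each time. The 9-lipoxygenases, which belong to a parallel oxylipin route, were higher in 6, 4 and 5 of 8 genes (6, 6 and 5 without the 5 libraries). Median log2 effects at 1, 3 and 6 h were 1.74, 1.23 and 0.62 for the 13-lipoxygenases and 2.99, 2.70 and 1.45 for allene oxide synthase.

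After OPR3, 1 of 2 OPCL1-annotated CoA ligase genes was higher at each time. Of 12 tested beta-oxidation genes, which shorten the side chain in the peroxisome, 7, 5 and 5 were higher and 1, 2 and 2 lower. Of 3 peroxisome import genes 1, 1 and 2 were higher and 1, 0 and 1 lower, and of 3 conjugation genes, which join jasmonic acid to isoleucine, 2, 1 and 1 were higher and 1 was lower at each time. Of 8 turnover genes, which oxidise or cleave the conjugate, 6, 5 and 5 were higher. Of 22 signalling genes, the JAZ repressors, receptor and partner factors, 18, 17 and 16 were higher and 1, 2 and 2 lower. Those lower were annotated COI1, the receptor: Sobic.003G359600 at each time (log2 -0.70, -1.66 and -1.65) and Sobic.009G157200 at 3 and 6 h (-0.79 and -0.97). The other COI1-annotated gene, Sobic.001G426900, was not called at any time. Median effects were 0.79, 0.34 and 0.33 for beta-oxidation, 3.16, 3.10 and 2.33 for turnover and 2.67, 2.07 and 1.77 for signalling. With library totals each list of the route still had at least as many genes higher as lower at each time. Without the 5 libraries that deviate alike 7, 6 and 8 of 12 beta-oxidation genes were higher. Turnover then had 7, 7 and 6 higher of 9 tested, and signalling 19, 19 and 18 of 23 tested. The counts lower of these 3 lists did not change.

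At each step the tested gene with the highest mean RPKM over all 18 libraries was followed, a choice that favours genes that rose. LOX2-annotated Sobic.004G078600 rose from 95.8 ± 38.7 to 228 ± 25.8 RPKM at 1 h, with log2 effects of 1.47 ± 0.34, 1.36 ± 0.34 and 0.76 ± 0.34 (adjusted p = 0.0022, 0.0061 and 0.095). DAD1-annotated Sobic.010G008800, a lipase, had smaller effects of 0.41 ± 0.15, 0.63 ± 0.15 and 0.57 ± 0.15 (adjusted p = 0.032, 0.0039 and 0.0074). The 9-lipoxygenase LOX1, Sobic.003G385500, was far more abundant and kept its rise, with 2.86 ± 0.31, 3.10 ± 0.31 and 2.94 ± 0.31 (adjusted p = 1.7e-06, 2.0e-06 and 4.4e-06). AOS-annotated Sobic.001G449700 rose from 48.7 ± 20.9 to 331 ± 113 RPKM at 1 h, with 2.99 ± 0.42, 3.04 ± 0.43 and 2.01 ± 0.41 (adjusted p = 2.6e-05, 5.0e-05 and 0.0014). AOC3-annotated Sobic.001G329800 rose from 18.2 ± 3.27 to 111 ± 24.2 RPKM, with 2.82 ± 0.25, 2.22 ± 0.24 and 1.21 ± 0.23 (adjusted p = 1.8e-07, 4.2e-06 and 9.1e-04). At 3 h AOS, AOC3 and OPCL1 had effects of over 2 (log2), where that of OPR3 was 1.25, and the difference between genes was not tested.

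Downstream, OPCL1-annotated Sobic.001G516600, the CoA ligase that acts on the OPR3 product in Arabidopsis, had effects of 3.09 ± 0.25, 2.81 ± 0.25 and 1.72 ± 0.24 (log2, adjusted p = 8.2e-08, 5.8e-07 and 6.7e-05). The multifunctional beta-oxidation gene AIM1, Sobic.004G124200, had 2.1 ± 0.13, 1.27 ± 0.13 and 0.93 ± 0.13 (adjusted p = 5.4e-09, 2.1e-06 and 5.1e-05). MFP2-annotated Sobic.003G158300, of the same step and named after its values were seen, was higher than AIM1 in intact buds at 3 h (57.3 against 39.2 RPKM) and 6 h (56.6 against 38.0 RPKM) and was not called at any time. JAR1-annotated Sobic.009G249900, which makes the active conjugate, had 1.59 ± 0.10, 1.29 ± 0.10 and 0.84 ± 0.10 (adjusted p = 9.1e-09, 2.5e-07 and 1.9e-05). The peroxisomal transporter gene ACN2, Sobic.009G005400, an alias of PXA1, fell at 1 h and rose at 6 h, with -0.40 ± 0.12, -0.09 ± 0.12 and 0.49 ± 0.12 (adjusted p = 0.015, 0.60 and 0.0063). IAR3-annotated Sobic.003G190500, a hydrolase of hormone conjugates, had 0.27 ± 0.13, 0.29 ± 0.12 and -0.02 ± 0.12, none of which passed (adjusted p = 0.089, 0.082 and 0.90). The repressor JAZ12, Sobic.006G244800, had 1.46 ± 0.30, 0.80 ± 0.29 and 0.24 ± 0.29 (adjusted p = 7.3e-04, 0.045 and 0.56).

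**Figure D5:**
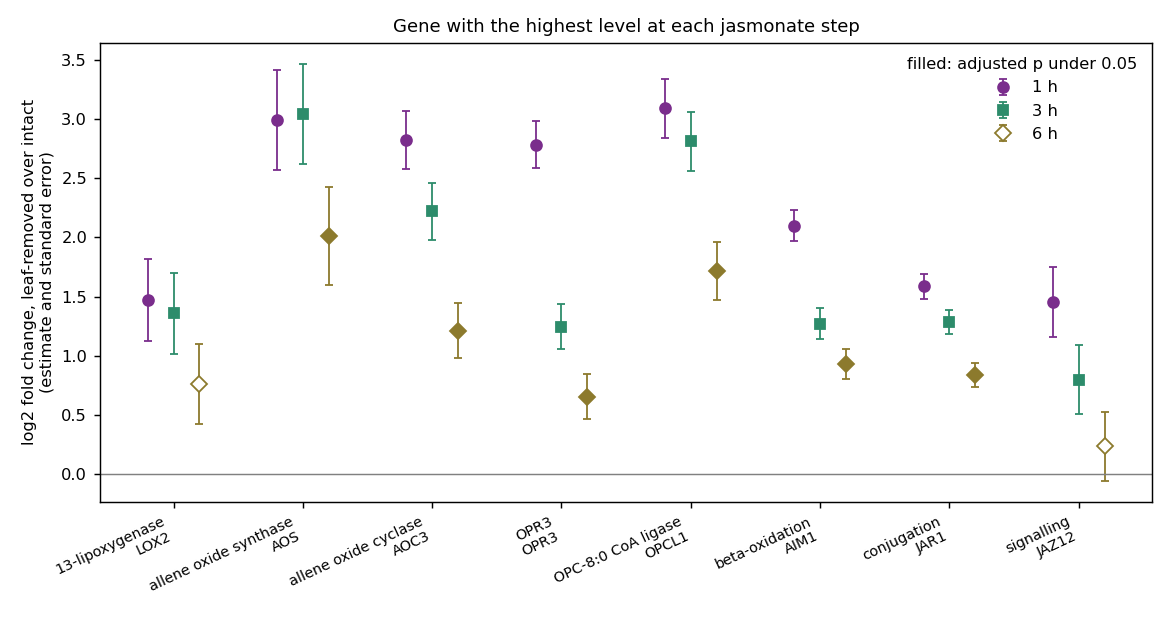
Log2 fold change, leaf-removed against intact (vertical axis, log2 scale), with its standard error, for the gene with the highest mean RPKM at each of 8 steps of jasmonate synthesis and signalling (horizontal axis), at 1, 3 and 6 h. Filled marks have an adjusted p under 0.05. All 8 are called higher at 1 and 3 h; OPR3 goes from 2.78 at 1 h to 1.25 at 3 h, while AOS is at 2.99 and 3.04. Peroxisome import and turnover, whose most abundant genes ACN2 and IAR3 are not called higher at 1 or 3 h, are among the steps not drawn.

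Over the 18 libraries, the genes whose log2 level was most like that of OPR3 among 12513 annotated genes were Sobic.009G146800, named for the potassium channel AKT2 (Pearson r = 0.992), and the protein kinase genes Sobic.002G362900 (IBS1, 0.989) and Sobic.008G161000 (0.988). Sobic.009G036000, named for the small membrane protein RCI2A (0.988), and Sobic.003G317100, named for the developmental regulator ULTRAPETALA (0.985), came next. For Sobic.010G084700 they were Sobic.002G407700, of the NAD(P)-binding Rossmann-fold family (0.984), CKX5-annotated Sobic.003G313800, a cytokinin oxidase (0.983), and Sobic.002G282900, a pyridoxal-dependent decarboxylase (0.982). DBP1-annotated Sobic.004G332900 (0.982) and the alpha/beta-hydrolase Sobic.003G232400 (0.981) followed. OPR3 and Sobic.010G084700 had an r of 0.932 with each other, while OPR3 had 0.284 with Sobic.006G091600 and -0.140 with Sobic.004G180500. The points share the 6 groups and their libraries, so these values largely rank genes by the same difference between groups.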

How the data were processed

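Per the labels' protocols, RNA of pooled buds came from a Trizol extraction with DNase digestion, and TruSeq libraries were sequenced on an Illumina HiSeq instrument. The deposited table gives, per gene and library, counts of total, unique and intron reads, the exon length and the authors' RPKM. It also gives, per time, the authors' signed fold change (a score at or above 1 or at or below -1) and FDR-corrected p-value from a test with tagwise dispersions, per the file headers. Aligner and build are not given in the sources used here. None (0) of the identifiers matched the RefSeq table, so no position was used.

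Total exon reads were tested with the quasi-likelihood F test of edgeR 4.0.16 in R 4.3.3: TMM factors, the default expression filter by group, the 6 groups in 1 model that leaves 12 residual degrees of freedom, and Benjamini-Hochberg adjustment over 21852 genes. The common biological coefficient of variation was 24.9%. A standard error is the log2 fold change over the square root of F. Levels are given in RPKM, the unit for comparing genes, and tests used counts. Correlations used log2 CPM with a prior count of 2, among annotated genes with a mean of at least 5 CPM. A group with no read was given a limit of 3 reads, and ratios of few reads have exact 95% binomial intervals. Such limits and ratios are relative to exon reads times the TMM factor, summed over the group. As no molecular identifiers were used, reads are not independent molecules.

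Every OPR gene is named or counted, whatever its result. Pathway and marker lists are matches to Arabidopsis symbols, and of each pathway list the gene with the highest mean RPKM is named. The members and lists were chosen with earlier results of these data known. Alternatives were library totals, limma 3.58.1 voom, DESeq2 1.42.0, its size factors in edgeR, no filter and a filter of 1 CPM in 9 libraries, unique reads, the replicate letter as a block, the 6 libraries of each time alone, the intron share as a covariate, leaving out 5 libraries known to deviate alike, and leaving out each library. The procedure was tested on simulated data for the comparison at 1 h, with the same spread given to every gene. Of 50 genes each set at 1.5-, 2-, 4- and 0.25-fold, 0, 15, 49 and 50 were called, with 6 false calls. Small changes are thus often missed, and genes with a wider spread were not covered. Tables and figures used pandas 2.3.3 and matplotlib 3.10.9.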

Additional observations from a re-analysis of the deposited data

Results flagged for a closer look

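In 4 cases the effect of leaf removal on an OPR gene differed between times by an interaction test in the 6-group fit. The OPR3 gene Sobic.007G151100 had a log2 effect that was lower at 3 h than at 1 h (-1.538, from 2.78 to 1.25) and lower at 6 h than at 1 h (-2.127, from 2.78 to 0.66). The OPR2-annotated Sobic.010G084700 had a lower effect at 6 h than at 1 h (-3.823, from 8.72 to 4.89), a value that rests on few intact reads. The OPR2-annotated Sobic.004G180500 had a higher effect at 6 h than at 3 h (1.048, from -0.35 to 0.70). The adjusted p were 4.4e-04, 1.5e-05, 0.023 and 0.026 in this order.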

How the results depend on the processing

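Over the 72 results of single members, 2048 values came from alternatives, of which 1977 kept their side of the threshold (54 uncalled values took the other sign), 45 lost a call, 25 gained one and 1 reversed. The reversal was Sobic.006G091600 at 1 h without leaf-removed replicate d, -0.416, where the values with each library left out ran up to 0.194. With 1 CPM in 9 libraries 4 members were tested, and 2 were higher at 1 h, 3 at 3 h, 0 differed between times in intact buds and 4 in leaf-removed buds, a difference that the filter makes by testing fewer genes. For the alternatives that follow the cause was not tested. With the replicate block 3 members were higher at 3 h. With the replicate block within time 3 were higher at 3 h and 1 at 6 h, 0 had a higher effect at 6 h than at 3 h and 1 had a lower effect at 6 h than at 1 h. The block took the call from Sobic.006G091600 (0.563, adjusted p = 0.085) and Sobic.010G084600 (adjusted p = 0.077) at 3 h and from both between leaf-removed times (adjusted p = 0.080 and 0.058). Within time it took it from these at 3 h (adjusted p = 0.18 and 0.058), from OPR3 (0.583, adjusted p = 0.18), Sobic.004G180500 (0.663, adjusted p = 0.13) and Sobic.010G084300 (adjusted p = 0.077) at 6 h, and from Sobic.004G180500 from 3 to 6 h (adjusted p = 0.68) and Sobic.010G084700 from 1 to 6 h (adjusted p = 0.11). With library totals 1 was lower at 3 h and 1 had a higher effect at 6 h than at 1 h. Without the 5 libraries 1 was lower at 3 h, 1 had a higher effect at 3 h than at 1 h, 1 a lower effect at 6 h than at 3 h and 4 a lower effect at 6 h than at 1 h. With no filter 0 had a higher effect at 6 h than at 3 h. From 1 to 6 h DESeq2 gave 1 higher effect, and limma voom 1 higher and 1 lower.

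With each library left out, the members higher were 5 to 6 at 1 h, 4 to 5 at 3 h and 4 to 5 at 6 h, and the members lower 0 to 1, 0 to 1 and 0 to 0. Effects higher at the later time were 0 to 1 for each of the 3 pairs of times, and lower ones 1 to 1 from 1 to 3 h, 0 to 0 from 3 to 6 h and 1 to 3 from 1 to 6 h. Differences between times were 0 to 2 in intact and 8 to 9 in leaf-removed buds. Within a time, 2 libraries of 1 letter had deviations from their group means that correlated at -0.405 to 0.528. The labels do not say whether a letter pairs the samples, and these few values, from groups of 3, cannot decide it. Over all genes, the replicate block within time gave 1456 higher and 1140 lower at 3 h (3889 and 3531 without it), 1416 and 1038 at 6 h (3943 and 3478), and 0 and 0 for the step from 3 to 6 h (513 and 197). DESeq2 gave 3480 differing between times in intact buds, against 2125. By unique reads 2 ranks of level changed. With no filter 12 members and with DESeq2 14 entered the test, and 7 were higher at 1 h in each.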
